A study of Mus musculus with 6 samples.

Results

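The F-box genes were examined in mouse fully-grown oocytes with and without normal Marf1. They were taken by symbol, as every gene of the array whose name starts with Fbxl, Fbxo or Fbxw and a number, with 1 gene of that pattern left out beforehand. This gave 70 of the 19938 genes that had a probe set of their own, and 1 of the 70, Fbxl12os, is an RNA from the opposite strand of Fbxl12 that codes no F-box protein. Another 2 probe sets named several Fbxw genes each and are described separately. The wild-type group (Marf1+/+) and the mutant group, which carried an ENU-induced (chemically induced) Marf1 allele on both copies, each had 3 samples, 1 array per sample. Both groups were females of the C57BL/6J;C3HeB/FeJ strain mix, primed at 21 days of age with 5 IU of equine chorionic gonadotropin and used 46 hours later, at 23 days. Oocytes at the germinal-vesicle stage, when transcription is largely silent, were freed from large antral follicles and stripped of cumulus cells. Whether samples came from separate females is not stated in the labels, and the p-values therefore rest on sample-to-sample spread that may be only technical. The values are log2 expression, and a difference of 1 is a doubling.

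An F-box protein is the part of an SCF ubiquitin ligase that picks the substrate. It docks through its F-box on Skp1, which sits on the scaffold Cul1 with the RING protein Rbx1. Proteins that the F-box protein binds are marked with ubiquitin, usually for destruction by the proteasome. The letter after Fbx names the rest of the protein: leucine-rich repeats in Fbxl, WD40 repeats in Fbxw, and other or no known motifs in Fbxo. In oocytes, timed destruction of proteins drives meiotic resumption, the metaphase II arrest and the clearance of maternal proteins. Mice carry a large tandem array of Fbxw genes on chromosome 9 that is transcribed mainly in oocytes. Each array read a pool of RNA, in which fewer cells and less RNA per cell cannot be told apart.

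The chromosome 9 genes are near copies of each other, and the stretch just before the start is shown for the 10 with a matched promoter so that their likeness can be seen. Fbxw13 and Fbxw22 are not among the 10. In the RefSeq annotation of GRCm38.p6, 15 Fbxw genes follow each other on chromosome 9, with 3 small nuclear RNA genes and 0 other protein-coding genes between them. Of the 15, 8 had a probe set of their own (Fbxw21, Fbxw13, Fbxw20, Fbxw22, Fbxw15, Fbxw24, Fbxw18 and Fbxw26, in chromosome order), 4 were named only together with others, and 3 had no named probe set. RefSeq promoters were matched for 56 of the 74 F-box genes that the array names, 10 of them from the cluster. The lines give the 120 bases before the annotated start, 5′ to 3′. Capitals mark the E-box CAGCTG, the shared stretch AAATCTTTGGCC and the T-rich TTTAAAA, and Fbxw19 has its CAGCTG at position -125, outside the bases shown.
Fbxw21, chr9:109162023-109162142, minus strand: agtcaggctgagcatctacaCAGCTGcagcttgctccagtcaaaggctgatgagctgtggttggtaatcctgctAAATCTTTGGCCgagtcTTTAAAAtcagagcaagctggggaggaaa
Fbxw20, chr9:109234755-109234874, minus strand: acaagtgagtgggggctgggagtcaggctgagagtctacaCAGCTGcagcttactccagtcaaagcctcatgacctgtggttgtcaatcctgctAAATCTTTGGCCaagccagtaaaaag
Fbxw14, chr9:109287677-109287796, minus strand: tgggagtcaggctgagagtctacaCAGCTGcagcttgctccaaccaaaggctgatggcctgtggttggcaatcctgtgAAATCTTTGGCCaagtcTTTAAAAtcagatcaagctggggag
Fbxw28, chr9:109339660-109339779, minus strand: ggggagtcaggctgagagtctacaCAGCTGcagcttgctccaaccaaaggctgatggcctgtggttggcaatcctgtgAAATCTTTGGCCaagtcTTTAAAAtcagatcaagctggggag
Fbxw16, chr9:109449141-109449260, minus strand: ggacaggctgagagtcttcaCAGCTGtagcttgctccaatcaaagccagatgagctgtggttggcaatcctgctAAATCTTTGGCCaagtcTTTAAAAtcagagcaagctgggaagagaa
Fbxw19, chr9:109495855-109495974, minus strand: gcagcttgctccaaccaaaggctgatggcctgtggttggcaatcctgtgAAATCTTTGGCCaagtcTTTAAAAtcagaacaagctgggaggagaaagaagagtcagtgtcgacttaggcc
Fbxw15, chr9:109568263-109568382, minus strand: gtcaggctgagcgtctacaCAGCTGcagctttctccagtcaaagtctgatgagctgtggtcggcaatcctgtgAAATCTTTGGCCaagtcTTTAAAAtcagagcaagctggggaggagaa
Fbxw24, chr9:109626060-109626179, minus strand: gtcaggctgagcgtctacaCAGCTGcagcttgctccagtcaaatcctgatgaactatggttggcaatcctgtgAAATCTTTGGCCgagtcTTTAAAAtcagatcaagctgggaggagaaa
Fbxw18, chr9:109702701-109702820, minus strand: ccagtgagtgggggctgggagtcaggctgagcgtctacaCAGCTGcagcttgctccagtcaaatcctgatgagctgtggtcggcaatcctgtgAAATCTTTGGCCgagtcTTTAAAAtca
Fbxw26, chr9:109746090-109746209, minus strand: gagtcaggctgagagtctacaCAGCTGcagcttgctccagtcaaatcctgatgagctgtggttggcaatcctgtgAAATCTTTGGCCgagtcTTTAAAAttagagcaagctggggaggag

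Over the 250 bases before the start, the 45 pairs of cluster promoters were identical at 71.6% to 97.2% of positions (median 86.4%), after global alignment. The 1035 pairs among 46 other F-box genes lay at 46.4% to 68.0% (median 57.2%), so the ranges did not overlap. Fbxw14 and Fbxw28, which share a probe set, were the most alike at 97.2%. The longest stretch held by all 10 was AAATCTTTGGCC, which searched on both strands occurred in 11 of 27025 genes' promoters (0.041%) and in 0 of the 46 other F-box genes. The remaining holder was the receptor gene Olfr829. The stretch began at positions -71 to -26 from the annotated start. Its neighbour TTTAAAA was in 9 of the 10 (not in Fbxw20), beginning at positions -54 to -10, against 6 of the 46 others and 8.0% of all promoters on either strand. The canonical TATA box TATAAA was in 0 of 10 and 0 of 46, against 13% of all promoters. The E-box family CANNTG, bound by helix-loop-helix factors such as the oocyte factors Figla and Sohlh1, was in 10 of 10, 33 of 46 and 66.0%. Its form CAGCTG, which those counts include, was in 10 of 10, 9 of 46 and 12.8%. The element TAATTG of the oocyte homeobox factor Nobox was in 0 of 10, 2 of 46 and 7.34%. These matches describe letters in a window and not binding. The 10 cluster promoters are near copies of each other, so their motif counts are not 10 separate observations. The shared stretch was picked because all 10 hold it, so its count in the cluster was fixed beforehand. Whether any motif is more frequent in the cluster than this likeness alone would give was not tested. Base composition differed too, with 47.6% to 52.4% G and C in the cluster (median 50.0%) against a median of 59.0% for the others and 52.0% for all genes. Cluster promoters held 0 to 4 CG pairs (median 1), the others a median of 15 and all genes a median of 6.

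**Figure D1:**
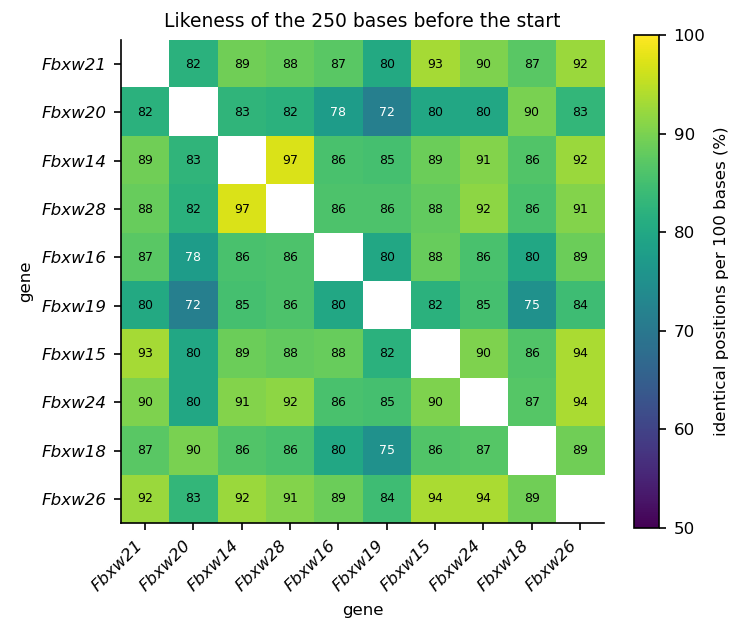
Percentage of identical positions (colour and printed value) between the 250 bases before the start of each pair of Fbxw cluster genes, in chromosome order on both axes; white squares are a gene with itself. Values run from 71.6% for Fbxw19 and Fbxw20 to 97.2% for Fbxw14 and Fbxw28.

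The F-box genes outside the cluster that passed the test and had a matched promoter held none of the 3 capitalised elements in the same stretch. They are printed for contrast with the lines above.
Fbxw2, chr2:34826236-34826355, minus strand: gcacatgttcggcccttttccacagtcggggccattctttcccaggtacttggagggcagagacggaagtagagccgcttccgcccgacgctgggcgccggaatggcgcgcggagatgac
Fbxo33, chr12:59219484-59219603, minus strand: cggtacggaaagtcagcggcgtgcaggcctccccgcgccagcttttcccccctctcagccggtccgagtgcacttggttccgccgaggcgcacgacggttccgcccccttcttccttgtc
Fbxo9, chr9:78109066-78109185, minus strand: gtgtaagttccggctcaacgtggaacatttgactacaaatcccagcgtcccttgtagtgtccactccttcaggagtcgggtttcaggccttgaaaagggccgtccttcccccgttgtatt

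Between genotypes, 5 of the 70 genes were higher in the mutant and 2 lower (limma, Benjamini-Hochberg adjusted p under 0.05 over all 35556 probe sets). That is 7.14% and 2.86%, against 6.40% and 4.04% of all genes, so the family changed about as often as genes in general. After cyclic loess normalization of the arrays the split was 6 higher and 1 lower, and over all genes 1548 and 527 in place of 1276 and 806. The 5 that rose were Fbxo45, Fbxw2, Fbxo25, Fbxo47 and Fbxo33, and the 2 that fell were Fbxw13 and Fbxo9. The median log2 difference of the family was -0.04, the same as that of all genes (-0.04). At an unadjusted p under 0.05 the family had 9 higher and 14 lower (12.9% and 20.0%), against 11.0% and 13.5% of all genes. All 3 mutant values lay above all 3 wild-type values in 9 members (12.9%, against 12.9% of all genes) and below them in 15 (21.4%, against 17.7%). Just inside the threshold lay Fbxo47 (adjusted p = 0.0436 by limma) and Fbxo9 (0.0361), and just outside it Fbxl6 (0.0848), Fbxo17 (0.0870) and Fbxl2 (0.0983).

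**Figure D2:**
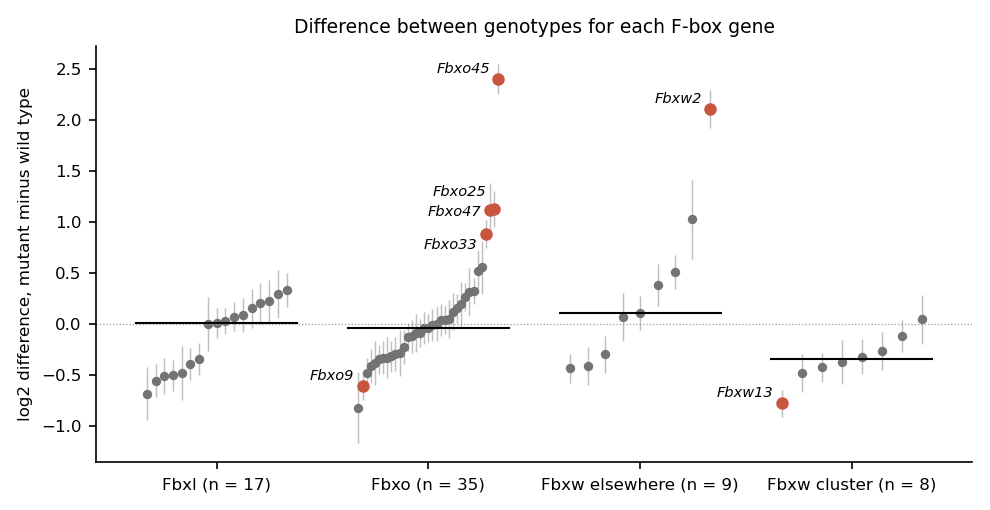
Log2 difference, mutant minus wild type, for the 69 F-box protein genes (points) with the standard error of the limma fit (grey bars), sorted within each class; red points passed the threshold and black lines are class medians. The largest points are Fbxo45 at 2.40 and Fbxw2 at 2.11. Of the 8 cluster genes 7 lie below 0, as do 862 of the 1308 genes at least as bright as the dimmest of them.

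The arrays were alike within a genotype, with 1 exception. Correlations over all probe sets were 0.984 to 0.985 among wild types and 0.985 between mutant replicates 1 and 2. Mutant replicate 3 correlated with them at only 0.970 to 0.973 and had a narrower spread (SD 2.04 over probe sets, against 2.14 to 2.20 on the other arrays). Marf1 itself was at 9.21, 9.16 and 9.31 in wild type and at 5.98, 6.40 and 6.16 in the mutant, so every library matched its label on this probe set. Where its probes lie relative to the mutation was not analysed here. All 14 oocyte markers measured lay above 4.52, which serves here as a mark of dim signal. This mark is the 95th percentile of 1203 olfactory, vomeronasal and trace amine receptor genes. Of the 14 markers 1 was called, Kit, which was lower (9.18 to 7.90), and 11 had a negative difference, with a median of -0.095. Of 16 cumulus and granulosa markers 2 were called higher and 1 lower, 12 had a negative difference and the median difference was -0.08. Nr5a2 (8.71 to 10.17) and Kitl (3.72 to 5.66) rose and Ptgs2 (5.14 to 4.14) fell. The summed unlogged level of the list, in which bright genes such as Nr5a2 weigh most, was 749 to 834 in wild type and 1417 to 1772 in the mutant. By mean over the 6 arrays, 9 of the 16 cumulus and granulosa markers lay above the dim mark. Another 6 lay below it in both genotypes, Fshr (4.04 and 4.24) and Amh (4.42 and 4.07) among them. The part of these markers in the F-box results was not tested. In the theca and stroma list 1 of 10 was called higher, and in the blood, immune and endothelial list 1 of 7 lower.

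Fbxo45 had the largest rise of the family. It is an atypical F-box protein that works with the RING ligase Mycbp2 in place of Cul1 and is known for axon and synapse development and for turning over Fbxw7 in mitosis. Its log2 level was 7.08, 6.92 and 7.01 in the wild types and 9.56, 9.23 and 9.41 in the mutants. The genotypes were far apart, each inside a narrow band. The difference was 2.40 (SE 0.14, 95% interval 2.06 to 2.73, 5.27-fold, limma adjusted p = 0.000155), and it passed in each of the 6 fits that left out 1 array, at adjusted p of 0.000509 to 0.00162.

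Fbxw2, whose reported substrates include the placental transcription factor Gcm1, came next. It stood at 5.26, 5.72 and 5.47 in wild type and at 7.70, 7.77 and 7.30 in the mutant. The lowest mutant was well above the highest wild type. The difference was 2.11 (SE 0.19, 95% interval 1.67 to 2.54, 4.31-fold, limma adjusted p = 0.000682), and no single array decided it (adjusted p 0.000871 to 0.00553 with 1 left out). Although named Fbxw, it lies on chromosome 2, and its promoter shown above held neither CAGCTG nor the shared stretch in the printed window.

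The other rises were those of Fbxo25, Fbxo33 and Fbxo47, at differences of 0.88 to 1.13. Fbxo25, a nuclear F-box protein known from the heart, was at 5.92, 6.23 and 6.14 in wild type and 7.35, 7.40 and 6.92 in the mutant. Mutant replicate 3 was its lowest mutant value and still lay above every wild type. The difference was 1.13 (SE 0.18, 2.18-fold, limma adjusted p = 0.00885) and it passed without any 1 array (0.00413 to 0.0442). Fbxo33, which targets the RNA- and DNA-binding protein Ybx1, moved from 8.77, 9.01 and 8.70 to 9.76, 9.69 and 9.67. The mutant values were almost equal to each other. The difference was 0.88 (SE 0.14, 1.84-fold, limma adjusted p = 0.00956), and the call ended without wild-type replicate 1 (0.0502) or 3 (0.0516).

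Fbxo47, a germ-cell gene needed for male meiosis, was at 6.92, 7.03 and 6.12 in wild type and at 7.86, 8.02 and 7.53 in the mutant. Wild-type replicate 3 sat well under the other wild types, and the groups did not overlap. The difference was 1.11 (SE 0.26, 2.16-fold, limma adjusted p = 0.0436). It kept the call with mutant replicate 3 left out (0.0488) and lost it with any other array left out (0.0562 to 0.126), at differences of 0.83 to 1.28, and after centring arrays on their medians (0.0683).

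The genes that fell did so by less. Fbxo9, known for regulating the Tel2 and Tti1 proteins that stabilise mTOR, was at 6.23, 6.06 and 6.29 in wild type and 5.59, 5.50 and 5.66 in the mutant. The difference was -0.61 (SE 0.14, 1.53-fold lower, limma adjusted p = 0.0361). The call held without mutant replicate 3 (0.0399) and ended without any other (0.0687 to 0.144) and after cyclic loess normalization (0.0513). Fbxw13 belongs to the chromosome 9 cluster and is described with its neighbours.

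**Figure D3:**
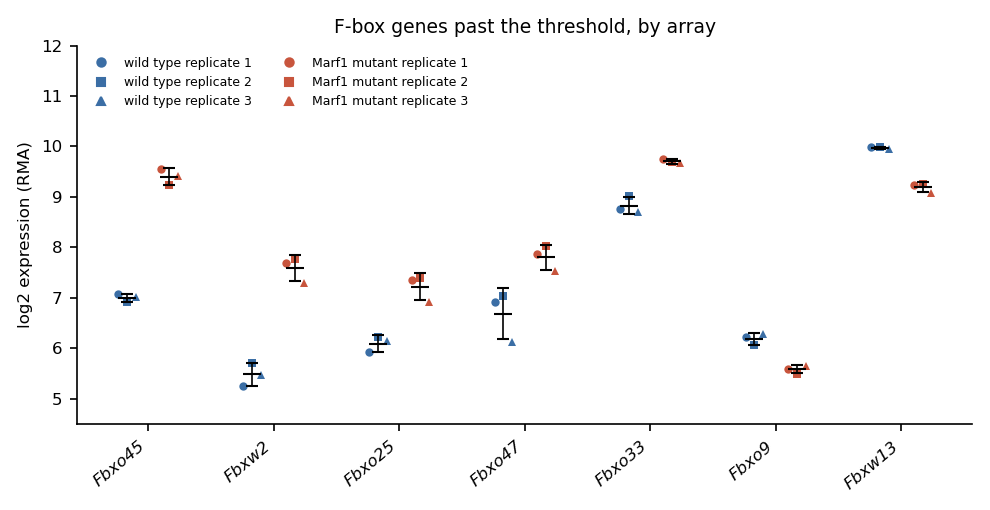
Log2 expression of the 7 F-box genes past the threshold on each of the 6 arrays (blue wild type, red Marf1 mutant, marker shape gives the replicate), with the mean and SD of each genotype in black. In each gene the groups do not overlap, from Fbxw2 with means of 5.48 in wild type and 7.59 in the mutant to Fbxw13 with 9.97 and 9.19.

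The chromosome 9 cluster was bright on every array, between 8.44 and 10.66 for the 8 genes with their own probe set. Probe sets differ in how strongly they bind, so their levels are not ranked. Of the 8 genes 1 was called lower and 0 higher, and 7 had a negative difference. The median was -0.35, against -0.04 over all genes. For the 1308 genes whose mean was at least that of the dimmest cluster gene it was -0.12. Negative differences made up 862 of those 1308 and 11267 of all 19938 genes. At an unadjusted p under 0.05 in limma 3 were lower (Fbxw13, Fbxw15 and Fbxw20) and 0 higher, and the same 3 had all mutants below all wild types. Those 3 are 37.5% of the cluster, against 13.5% of all genes lower at that p and 17.7% not overlapping. Among the 1308 genes at least as bright the shares were 22.2% and 30.8%, and 4.43% were called lower.

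Fbxw13 was at 9.98, 9.99 and 9.95 in wild type and at 9.24, 9.26 and 9.08 in the mutant. Both genotypes were tight and clearly separated. The difference was -0.78 (SE 0.13, 95% interval -1.08 to -0.48, 1.72-fold lower, limma adjusted p = 0.0110). It missed the threshold without wild-type replicate 1 (0.0533) or 3 (0.0516), at differences of -0.78 and -0.79. Set against the median of the other 7 cluster genes on the same array, Fbxw13 stood at -0.26, -0.04 and -0.05 in the wild types and -0.83, -0.66 and -0.36 in the mutants. On this measure too every mutant lay below every wild type, a difference that was not tested because Fbxw13 was singled out by its call.

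Its neighbour Fbxw20 was at 10.02, 10.03 and 10.00 in wild type and 9.56, 9.78 and 9.43 in the mutant, a difference of -0.43 (95% interval -0.76 to -0.09, limma adjusted p = 0.136). Fbxw15 went from 10.65, 10.35 and 10.49 to 10.09, 10.27 and 9.69 (difference -0.48, interval -0.91 to -0.05, limma adjusted p = 0.196). In both the groups were apart, but the adjusted p was not under 0.05. Fbxw24, known to act on the synaptonemal complex protein Sycp3 in female meiotic prophase, was at 10.66, 10.33 and 10.45 and at 10.26, 10.41 and 9.65. Its groups overlapped, with a difference of -0.37 and an interval of -0.88 to 0.14. Fbxw26 (-0.32), Fbxw18 (-0.27), Fbxw21 (-0.12) and Fbxw22 (0.04) also overlapped between genotypes. Their intervals ran from -0.72 for Fbxw26 at the lowest to 0.60 for Fbxw22 at the highest, so differences of that size are not shown to be absent.

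The last mutant array weighs on the cluster. Mutant replicate 3 was the lowest of the 6 arrays in 8 of 8 cluster genes. It was the lowest in 21.2% of all genes and in 57.7% of the 1308 genes at least as bright, where its median distance from the mean of the other mutants was -0.28, against -0.44 in the cluster. Without it the median difference of the cluster was -0.17, and with another array left out it was -0.48 to -0.27. After cyclic loess normalization it was -0.22. Fbxw13 kept its call without that array. The part of this array in the cluster's lower values beyond these numbers was not tested.

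The probe set naming Fbxw28, Fbxw22, Fbxw19 and Fbxw14 was at 11.29, 11.01 and 11.14 in wild type and at 11.24, 11.22 and 10.83 in the mutant (difference -0.05, 95% interval -0.44 to 0.34, limma adjusted p = 0.928). The one naming Fbxw16 and Fbxw19 was at 9.81, 9.41 and 9.49 and at 9.54, 9.62 and 9.0 (-0.18, interval -0.66 to 0.30, limma adjusted p = 0.737). Both overlapped between genotypes. The cluster genes are close copies, and whether a probe set named for 1 of them also reads another was not tested.

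**Figure D4:**
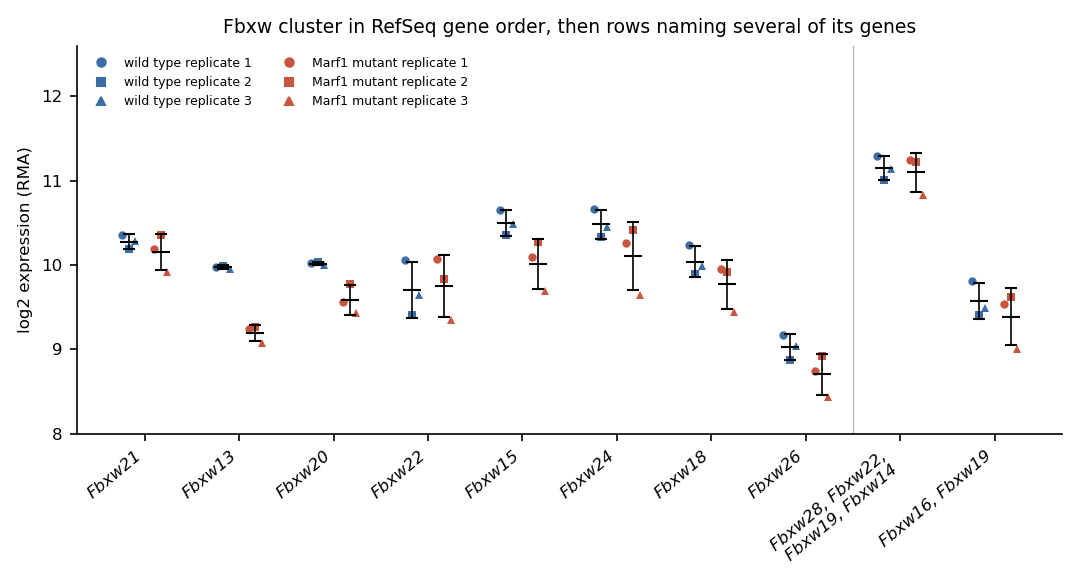
Log2 expression of the Fbxw cluster by array, in chromosome order, followed right of the grey line by the probe sets that name several of its genes; colours, marker shapes and black mean with SD as in the plot of called genes. Fbxw13 is the gene with the clearest gap, and mutant replicate 3 (red triangle) is the lowest point in all 8 single-gene columns.

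Of the 9 Fbxw genes elsewhere in the genome, Fbxw2 was called higher and 0 were lower, and their median difference was 0.10. Fbxw11, a beta-TrCP protein that recognises phosphorylated beta-catenin, I-kappa-B and Wee1, was at 6.68, 6.85 and 6.71 in wild type and 7.41, 7.39 and 6.97 in the mutant. The groups were apart, but the difference of 0.51 (SE 0.17, 95% interval 0.13 to 0.89) missed the threshold (limma adjusted p = 0.122). It passed without mutant replicate 3 (0.65, 0.0326), with array weights (0.61, 0.0269) and after cyclic loess normalization (0.67, 0.0302). Fbxw7, the tumour suppressor that destroys cyclin E, Myc, Notch and Mcl1, had a pair of probe sets. The one with the higher mean was at 8.14, 7.48 and 6.78 and at 8.49, 9.05 and 7.93 (1.02, limma adjusted p = 0.188), and the other at 5.63, 6.23 and 5.60 and at 6.40, 6.24 and 5.94 (0.37, limma adjusted p = 0.420). Wild types and mutants overlapped on both. In Fbxw4 every mutant was below every wild type, and the difference of -0.44 (SE 0.14, 95% interval -0.76 to -0.11) missed the threshold (limma adjusted p = 0.122). Fbxw8, which works with Cul7, had a difference of 0.38, Fbxw17 of -0.41 and Fbxw5 of -0.30, with overlapping groups and none past the threshold. Fbxw9 (0.10) and Fbxw10 (0.06) were close to 0, and Fbxw10 was dim in both genotypes.

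None of the 17 Fbxl genes passed (0 higher and 0 lower by limma; 0 and 5 at an unadjusted p under 0.05, where 5 of 17 is 29.4% against 13.5% of all genes), and their median difference was 0.01. The mutant values lay below all wild-type values in 6 of them (35.3%, against 17.7% of all genes) and above in 0. The 5 lower at an unadjusted p were Fbxl13 (-0.68), Fbxl6 (-0.56), Fbxl22 (-0.51), Fbxl2 (-0.50) and Fbxl16 (-0.39), at adjusted p of 0.0848 to 0.204. Of these Fbxl16 was below the dim mark in both genotypes (4.44 and 4.04) and Fbxl13 in the mutant (4.67 and 3.99). Fbxl8, the remaining gene with all mutants lower, was also below it in the mutant (4.58 and 4.24). Fbxl6, the nearest to the threshold, was at 5.93, 6.26 and 5.85 in wild type and 5.49, 5.55 and 5.33 in the mutant. Fbxl20 (8.72 and 8.72), Fbxl5, the iron sensor that controls Ireb2 (7.68 and 7.75), and Fbxl14, a regulator of Snail proteins (7.05 and 7.08), are given as the genes of the class with the highest wild-type signal. Their intervals were -0.62 to 0.61, -0.26 to 0.40 and -0.26 to 0.32. Fbxl12os was dim, at 3.01 and 2.92.

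Among the other Fbxo genes the ones known from meiosis did not pass the test. Fbxo43 (Emi2), which holds the egg in metaphase II by inhibiting the anaphase-promoting complex, was at 10.32, 10.21 and 10.26 in wild type and 10.10, 9.82 and 9.83 in the mutant. Every mutant was below every wild type, at a difference of -0.35 (SE 0.14, interval -0.67 to -0.02, limma adjusted p = 0.222). Fbxo30, reported to target the spindle motor Kif11 and to act in oocyte meiosis, was at 10.63, 10.58 and 10.57 and at 10.91, 10.97 and 10.87. Here every mutant was above, at 0.32 (SE 0.12, interval 0.03 to 0.61, limma adjusted p = 0.197). Fbxo34, reported to act in meiotic maturation, had equal means of 7.09 (interval of the difference -0.38 to 0.38). Fbxo11, which targets Bcl6, was at 9.72 and 9.84 (limma adjusted p = 0.815).

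Further Fbxo genes are grouped here by textbook role. Of the 5 genes of the family that includes the glycoprotein-binding Fbxo2 and Fbxo6, Fbxo17 had all mutants lower (5.92, 5.92 and 6.13 against 5.41, 5.55 and 5.58; difference -0.48, limma adjusted p = 0.0870). Fbxo2, Fbxo6, Fbxo27 and Fbxo44 had differences of -0.04 to 0.19, and Fbxo2 and Fbxo27 were dim in both genotypes. Those tied to cyclin D1 turnover, Fbxo4 (-0.01, dim) and Fbxo31 (-0.29), did not pass. Neither did the muscle genes Fbxo32 (0.26) and Fbxo40 (0.04). Fbxo15, a gene of pluripotent stem cells, had the lowest difference of the family at -0.82 with an interval of -1.64 to -0.003 (limma adjusted p = 0.249). Its values of 6.97, 6.90 and 5.86 against 5.88, 6.17 and 5.22 overlapped, with a low wild-type replicate 3. Fbxo3 (0.51) and Fbxo46 (-0.41) had unadjusted p under 0.05 and adjusted p of 0.236 and 0.214 by limma. Over the family, 47 genes had an unadjusted p of 0.05 or more, with differences from -0.48 to 0.55. In 4 of those 47 the groups did not overlap, and the matching share over all genes at such p was not counted. Of the 70 members 9 were below the dim mark in both genotypes, where a difference could go unseen.

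The ligase machinery around the F-box proteins was counted from lists of named genes. Their counts are read against the 6.40% of all genes called higher and 4.04% called lower, and their medians against -0.04. Of 15 genes of the SCF core, its E2 enzymes and its chaperones, 2 were higher and 1 lower, with a median difference of 0.02. Skp1 (10.30 and 10.32), Cul1 (10.34 and 10.12) and Rbx1 (9.92 and 9.80) did not pass. Rnf7, a RING-protein relative of Rbx1, was at 8.23, 8.62 and 7.95 in wild type and 11.44, 11.15 and 10.71 in the mutant. This rise of 2.83 (SE 0.24, 7.13-fold, limma adjusted p = 0.000548) was larger than that of any F-box gene. Cacybp, an adaptor that links Siah ligases to Skp1, went from 5.55, 6.09 and 5.86 to 8.66, 7.99 and 8.58 (2.58, limma adjusted p = 0.000633). Glmn, which binds Rbx1 and blocks E2 access, was at 8.49, 8.67 and 8.40 and at 7.07, 7.42 and 6.92 (-1.38, limma adjusted p = 0.00294). The 3 calls held without any 1 array.

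Of 21 genes that attach or remove Nedd8 on cullins or exchange their adaptors, 0 were higher and 1 was lower, with a median of -0.09. This was Cops7b, a subunit of the COP9 signalosome, at 7.98, 7.79 and 8.11 in wild type and 7.14, 7.04 and 6.25 in the mutant (-1.15, limma adjusted p = 0.0311). It missed the threshold without any of the wild types or mutant replicate 2 (0.0552 to 0.118) and after median centring (0.0691). At an unadjusted p under 0.05 in limma 1 gene of the list was higher and 3 lower. Cops6, of the same signalosome, did not pass at -0.58, with a limma adjusted p that rounds to 0.05. Cops4 was at -0.76 (limma adjusted p = 0.129). In both every mutant lay below every wild type. Of 7 other cullins Cul4a rose by 1.19 (limma adjusted p = 0.0106) and 0 fell. Among 9 F-box proteins with other names, 0 passed (1 higher and 3 lower at an unadjusted p under 0.05 in limma). Btrc, the twin of Fbxw11, was at 9.66 and 9.34 (-0.31, limma adjusted p = 0.228), Skp2 at 5.96 and 6.07 and Ccnf at 6.02 and 5.98. Lmo7 (-0.77), Kdm2b (-0.62) and Kdm2a (0.71) were nearest, at adjusted p of 0.0659 to 0.0785.

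Of 24 textbook substrates of F-box proteins 5 rose and 1 fell at the RNA level, which says nothing of their protein, against 6.40% higher and 4.04% lower among all genes. Their median difference was 0.01. The cell-survival gene Mcl1, a target of Fbxw7, went from 6.61, 6.15 and 5.96 to 9.33, 9.35 and 8.88 (2.95, limma adjusted p = 0.000305). Ccne1, the cyclin E that Fbxw7 destroys, went from 5.29, 5.58 and 5.32 to 7.60, 7.61 and 7.55 (2.19, limma adjusted p = 0.000198). Wee1, the Cdk1 inhibitor recognised by Fbxw11 and Btrc, rose by 1.78 (limma adjusted p = 0.00202). These 3 kept the call without any 1 array. Ccne2 (0.91), the ribonucleotide reductase subunit Rrm2 (0.70), a target of Ccnf, and the clock gene Cry1 (-0.66) passed at adjusted p of 0.0332 to 0.0443 and lost the call without any array other than mutant replicate 3, at p up to 0.157. Cry1 also lost it after quantile (0.0621) and cyclic loess normalization (0.126), and Ccne2 (0.0953) and Rrm2 (0.0798) after median centring. Kif11, the target of Fbxo30, had a difference of 0.61 (limma adjusted p = 0.0554), Sycp3 of 0.65 (0.233) and Ireb2 of 0.03 (0.962). The partner and substrate lists held 15, 21, 7, 9 and 24 genes and were chosen with earlier results of these data known. Over them 11 genes passed, to be read against 6.40% higher and 4.04% lower among all genes. The count was 7 when wild-type replicate 1, 2 or 3 or mutant replicate 2 was left out, 8 without mutant replicate 1 and 17 without mutant replicate 3.

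**Figure D5:**
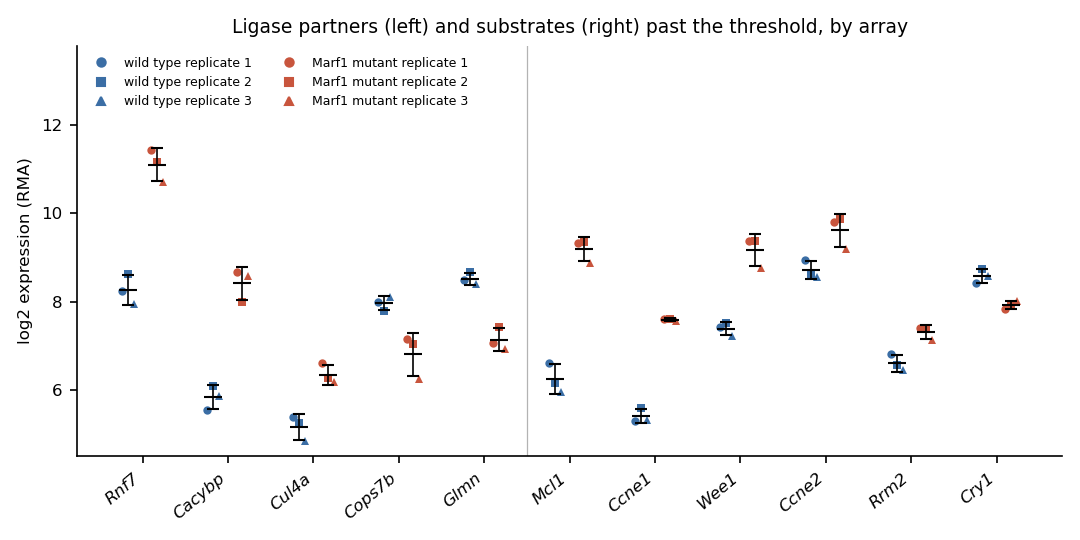
Log2 expression by array of the genes past the threshold among ligase partners (left of the grey line) and F-box substrates (right), with colours, marker shapes and black mean with SD as in the plot of called genes. Rnf7, Cacybp, Mcl1 and Ccne1 show the widest gaps, with means of 8.27 and 11.10, 5.83 and 8.41, 6.24 and 9.19, and 5.40 and 7.59.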

How the data were processed

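The authors deposited log2 values for each probe set, made with GCOS, Affymetrix Expression Console 1.1 and RMA, per the submitters' processing notes, and rounded to 2 decimals. The deposited arrays did not share one distribution (medians of 4.56 to 4.76 over all probe sets) and were used as given, and a change in total RNA per oocyte cannot be read from them. The array's genome build was not given in the sources used here. Probe sets were named from the platform annotation (21789 naming 1 gene, 1621 several, 12146 none). A gene with several probe sets was represented by the one brightest on average across the 6 arrays. The test was limma 3.58.1 (lmFit, then eBayes; R 4.3.3; genotype only, two-sided, 3 against 3 arrays), with Benjamini-Hochberg adjustment over all 35556 rows and a threshold of 0.05. The fit was tested on simulated data. Intervals are 95% intervals of that fit. The number of arrays limits the precision.

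Promoters (GRCm38.p6, the table's first entry per gene) were aligned with Biopython 1.88. The members and lists were chosen with earlier results of these data known. Genes named were the members and list genes past the threshold, the cluster, the 3 brightest of each class in wild type and members known from meiosis. The Fbxo2-related, cyclin D1 and muscle groups, the genes nearest the threshold and the other members and list genes given with values were chosen after their values were seen. Alternatives covered normalization, variance model, array weights, low rows, rows per gene, a 2-fold minimum, a replicate block and leaving out each array.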

Additional observations from a re-analysis of the deposited data

How the results depend on the processing

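The cluster's median difference was negative under every alternative run, from -0.48 to -0.17. The variance model, row choices, 2-fold minimum and replicate block could not move this median, which stayed at -0.35. It was -0.29 after quantile and -0.22 after cyclic loess normalization, -0.35 after median centring and -0.24 with array weights. The ends of the range came from leaving out 1 array. The number of F-box genes higher (5) was 4 to 6 under the alternatives that kept all arrays and 3 to 6 with 1 array left out. The number lower (2) was 1 after cyclic loess normalization, 4 among rows above the median level, 5 with 1 row per gene, 0 at a change of at least 2-fold, and 0 to 2 with 1 array left out. The number lower in the cluster (1) was 0 at 2-fold and 0 to 1 with 1 array left out. The partner and substrate lists (11 genes) gave 19 after quantile normalization, 16 after cyclic loess, 18 with array weights and 18 among rows above the median level. They gave 20 with 1 row per gene, and 8 after median centring, at 2-fold and with the replicate block. With 1 array left out the count was 7 to 17. Of all genes, 1276 were higher, or 825 to 1423 with 1 array left out. Under the alternatives that kept all arrays the count ran from 922 at 2-fold to 1708 with 1 row per gene. The 806 lower became 527 after cyclic loess, 485 after median centring, 1278 among rows above the median level, 1514 with 1 row per gene, 221 at 2-fold and 199 to 617 with 1 array left out. Deviations of same-numbered samples from their genotype means correlated at 0.147, -0.099 and 0.027, and those of differently numbered samples at -0.216 to 0.183. With 3 arrays per genotype these correlations cannot decide whether the numbers pair samples. With the replicate number as a block the F-box genes lower were 1, since Fbxo9 missed the threshold (adjusted p = 0.0778 by limma), the F-box genes higher 5, and all genes lower 383. Cops7b (0.0662), Cry1 (0.074) and Rrm2 (0.0586) missed it too. Where a call was lost the cause was not tested. Dim signal limits the 9 members below the receptor-gene mark.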
